A study of Mus musculus with 24 samples.

Results

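The Eph receptors, ephrins, semaphorins, plexins, neuropilins, Slits and Robos of the mouse are described here across neural stem cells and astrocytes of different origin. They were chosen by gene symbol among the protein-coding genes of the Gencode annotation, and 60 of the 49671 genes in the count table met the rule. They comprise 9 EphA and 5 EphB receptors, 5 ephrin-A and 3 ephrin-B ligands, 7 class 3, 6 class 4, 2 class 5, 4 class 6 and 1 class 7 semaphorins, 4 A, 3 B and 2 C or D plexins, 2 neuropilins, 3 Slits and 4 Robos.

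RNA-seq was performed on 24 libraries, 4 for each of 6 groups, to follow the transcriptome of astrocytes with culture, with age and with an origin from stem cells. NSCs were neural stem cells derived from an embryonic stem cell line of C57BL/6N mice and kept in 20 ng/ml EGF and 20 ng/ml FGF, at passage 50 to 60. AGES were astrocytes made from these NSCs with 20 ng/ml BMP4 over 3 to 5 days. Both groups therefore stand for 1 cell line, and their replicates were cultures of different passages. NSCs were grown on gelatin and AGES on poly-ornithine and laminin, both in N2B27 medium. No EGF or FGF is listed for AGES. BMP4, the coating and the loss of these growth factors cannot be told apart. Primary astrocytes came from C57BL/6J wild-type mice by magnetic sorting for ACSA-2, an epitope of the sodium pump subunit Atp1b2, with the brains of 2 mice pooled for each isolation. The neonates were aged 4 to 8 days and the adults 100 to 140 days. Astrocytes were frozen directly after isolation (neoAC direct, AdAC direct) or first grown for 7 to 10 days in AstroMACS medium on poly-lysine and laminin (neoAC CellC, AdAC CellC). Between AGES and these cultures, origin from stem cells, medium, coating and substrain of mouse cannot be told apart. Neonatal cerebral tissue without meninges was dissociated with a kit for neural tissue, adult brain with a kit for adult brain followed by removal of debris and red blood cells, and the olfactory bulb and cerebellum were taken off for direct adult isolation. Age and these differences of preparation cannot be told apart. Since this removal is stated for direct isolation only, culture and brain region cannot be told apart in adult cells either, which touches the adult culture comparison and the interaction of culture and age.

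Axon guidance molecules were named for steering growing axons, and they also set boundaries between cells, guide vessels and shape contacts between glia and synapses. Ephrin-A ligands are anchored in the membrane by a lipid and bind mainly EphA receptors, which are tyrosine kinases, whereas ephrin-B ligands span the membrane and bind mainly EphB receptors, and both sides of the contact can signal. Class 3 semaphorins are secreted and act through neuropilins paired with A plexins, apart from Sema3e, which binds Plxnd1 directly. Semaphorins of the other classes sit in the membrane and bind plexins, for example Sema4d binds Plxnb1 and Sema7a binds Plxnc1. Slits are secreted repellents whose receptors are the Robos.

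Library totals ran from 27904126 to 37997368 counts, and 3 counts, taken here as the floor of detection, correspond to 0.0786 to 0.117 CPM (counts scaled to the library total and TMM factor). This floor covers counting error only. All 8 astrocyte markers examined had a mean of at least 1 CPM in every group, yet their summed level was 827 to 1201 CPM in AdAC CellC, below the 1950 to 2484 CPM of NSCs, and 15830 to 22790 CPM in the directly isolated cells. Markers of other cell types were present in several groups, and the sums of some that moved are given beside the comparisons. Summed astrocyte markers were 4894 to 5698 CPM in neoAC CellC and 6262 to 6955 CPM in AGES. Those of neural stem cells were 2898 to 3687 CPM in NSCs, 1240 to 1658 in AGES, 1745 to 2706 in neoAC CellC and 6218 to 7985 in neoAC direct. In the adult groups they were 1786 to 2178 CPM in AdAC CellC and 543 to 631 CPM in AdAC direct. In bulk RNA, fewer cells of a type and less RNA per cell cannot be told apart.

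Of the 60 genes, 36 had at least 1 CPM in every library of all 6 groups. The number expressed at this level in all 4 libraries of a group was 40 in NSCs, 41 in AGES, 53 in neoAC CellC, 55 in neoAC direct, 57 in AdAC CellC and 53 in AdAC direct. The EphA receptor Epha6 did not reach this level in any group and was the only gene of the 60 that was not tested. The group mean was highest in neoAC direct for 17 genes, in AdAC CellC for 17, in AdAC direct for 9, in NSCs for 8, in AGES for 8 and in neoAC CellC for 0 of the 59 tested genes. At or under the floor were Epha1, Epha6, Robo4, Slit3 and Sema4f in NSCs, Epha1, Epha6, Epha7, Epha8, Slit1, Sema3d and Sema4f in AGES and Epha8 in AdAC CellC. The summed level of the 60 genes was 2907 to 3130 CPM in NSCs, 3570 to 4056 in AGES, 3090 to 3275 in neoAC CellC, 4546 to 5517 in neoAC direct, 3803 to 4146 in AdAC CellC and 4175 to 4628 in AdAC direct.

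**Figure D1:**
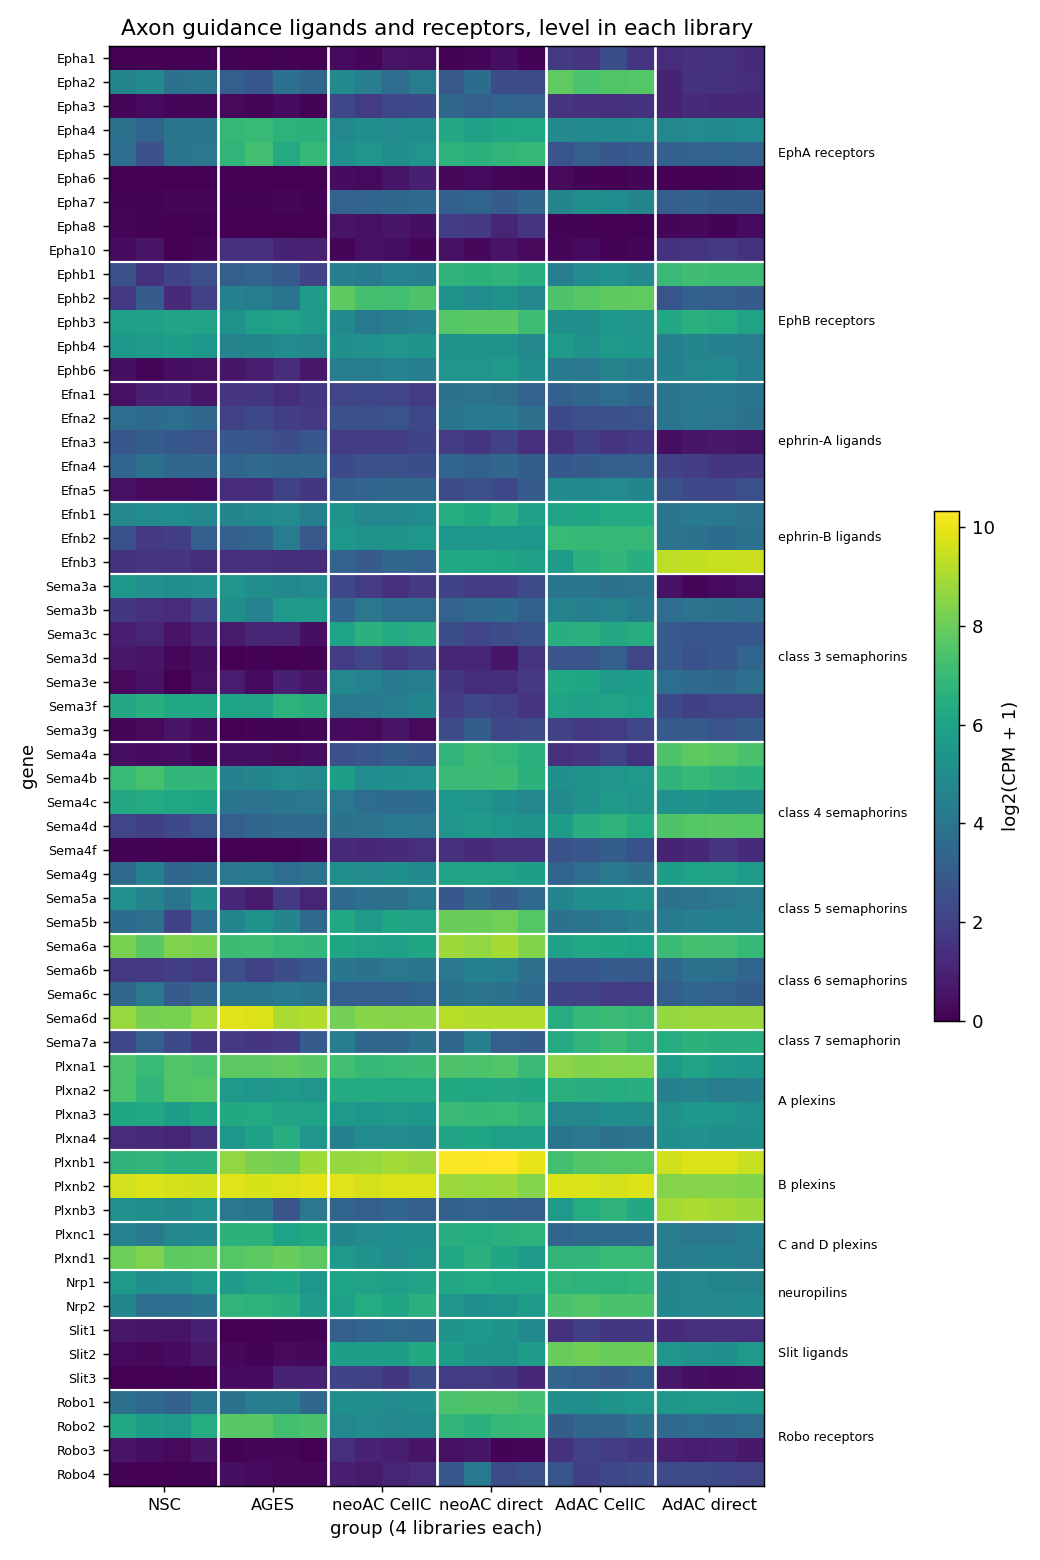
Level of the 60 genes, as log2(CPM + 1) in colour, in each of the 24 libraries (columns, 4 for each group, replicates 1 to 4 from left to right), with genes in lines by role. Plxnb1, Plxnb2 and Sema6d are bright in every group, Efnb3 and Plxnb3 are brightest in AdAC direct, and the Slits and several EphA receptors are dark in NSCs and AGES.

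Levels of different genes were compared per kilobase of exon. Plxnb2, a receptor for class 4 semaphorins, led all plexins in NSCs, AGES and both cultured groups, with 105 ± 6.38 CPM per kb in NSCs and 116 ± 6.3 in AGES (mean ± SD, n = 4). In the directly isolated cells the first plexin per kb was Plxnb1, the receptor of Sema4d, at 124 ± 14.3 CPM per kb in neoAC direct and 82.8 ± 8.04 in AdAC direct. Plxnb1 was 1236, 1232, 1288 and 983 CPM in the libraries of neoAC direct and 759, 859.6, 856 and 702 CPM in those of AdAC direct, and Plxnb2 was 794, 875, 818 and 758 CPM in NSCs. Exons of Plxnb1 overlap the gene Gm7628 on the opposite strand by 257 bases, and since the use of strand in counting is not given, its level is uncertain to that extent.

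Per role, the first gene per kb changed with the group. Among EphA receptors it was Epha2 in NSCs and both cultured groups, 41.4 ± 5.06 CPM per kb in AdAC CellC, and Epha4 in AGES and both directly isolated groups, 13.8 ± 1.65 CPM per kb in AGES. Among EphB receptors Ephb4 led in NSCs (10.1 ± 0.937 CPM per kb), Ephb3 in AGES and neoAC direct (27.9 ± 4.71 in the latter), Ephb2 in both cultured groups (16 ± 1.69 in AdAC CellC) and Ephb1 in AdAC direct (19.2 ± 0.865). Among ephrin-A ligands Efna4 was first in NSCs, AGES and neoAC CellC, Efna2 in neoAC direct, Efna5 in AdAC CellC and Efna1 in AdAC direct. Efnb1 led the ephrin-B ligands in NSCs, AGES and both neonatal groups and Efnb3 in both adult groups, where it reached 214 ± 13.2 CPM per kb in AdAC direct. The class 6 semaphorin Sema6d, a ligand of A plexins, led its class in all 6 groups, from 10.6 ± 1.96 CPM per kb in AdAC CellC to 68.5 ± 19.7 in AGES.

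Among class 3 semaphorins Sema3f was first in NSCs and AGES, Sema3c in both cultured groups and Sema3b in both directly isolated groups. Plxna1 led the A plexins in all 6 groups, and its libraries held 372, 328, 348 and 343 CPM in AdAC CellC, the highest group, and 48.5, 60.2, 51.4 and 43.3 CPM in AdAC direct, the lowest. These do not overlap. Plxna1 overlaps Gm26811 on the opposite strand by 970 bases. Nrp2 was first of the neuropilins in AGES and both cultured groups and Nrp1 in the other three. Slit1 led the Slits in NSCs and neoAC direct, Slit2 in neoAC CellC and both adult groups and Slit3 in AGES, although the leading Slit had only 0.107 ± 0.0285 CPM per kb in NSCs and 0.102 ± 0.0736 in AGES. Robo2 led the Robos in NSCs and AGES and Robo1 in all primary cells. Sema4b led class 4 apart from Sema4d in AdAC CellC and Sema4a in AdAC direct, Sema5b led class 5 apart from Sema5a in NSCs, and Plxnd1 led the C and D plexins apart from Plxnc1 in neoAC direct. Exons of Epha1, Epha6, Epha10, Ephb1, Ephb4, Sema4c, Efna3 and Efna4 also overlap genes on the opposite strand, and those of Sema4a and Nrp1 overlap genes on the same strand.

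The first question was how culture changed these genes in adult astrocytes. In AdAC CellC compared with AdAC direct, 28 genes rose and 21 fell (edgeR adjusted p under 0.05), 49 of the 59 tested, where 78% of all 19691 genes tested were called, 38.8% as higher and 39.2% as lower. The median log2 fold change was 0.10 over the 59 genes and 0.00 over all genes, and the median size of the change was 1.64 against 1.00. A change of more than 1 on the log2 scale was called for 41 genes (48.7% of all genes), and the libraries of the 2 groups did not overlap for 50 (76.3% of all genes). The class 3 semaphorins (5 of 7), both neuropilins, all 3 Slits, 2 of 3 ephrin-B ligands and 3 of 5 ephrin-A ligands rose, while all 4 class 6 and 4 of 6 class 4 semaphorins fell. Summed astrocyte markers went from 15830 to 16530 CPM in AdAC direct down to 827 to 1201 CPM in AdAC CellC. Markers of other cells moved in the same comparison. From AdAC direct to AdAC CellC, summed markers of fibroblasts and meninges went from 78.8 to 95.5 CPM up to 1065 to 1547 CPM, and those of neurons from 13.7 to 16.8 CPM up to 52.9 to 81.3 CPM. The neuron sum in AdAC CellC was mostly Stmn2, with a mean of 59.1 CPM. Of the 7 neuron markers, 3 had at least 1 CPM in every AdAC CellC library and 4 in every AdAC direct library. Those of mature oligodendrocytes went from 9799 to 10520 CPM down to 2769 to 7158 CPM, of oligodendrocyte precursors from 373 to 495 CPM down to 155 to 242 CPM, of ependymal cells from 1073 to 1226 CPM down to 228 to 329 CPM and of mural cells from 237 to 259 CPM down to 101 to 142 CPM. The part of these shifts in the changes of the genes was not tested.

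Epha2, an EphA receptor tyrosine kinase best known from epithelia, had 0.994, 1.85, 1.81 and 1.58 CPM in AdAC direct and 226, 169.5, 185 and 193 CPM in AdAC CellC. Every cultured library was far above every direct one, with log2 fold change 6.94 ± 0.41 SE, edgeR adjusted p = 6.55e-13. Ephb2, an EphB receptor of synapses and tissue borders, had 5.46, 8.37, 7.79 and 6.54 CPM directly after isolation and 174, 198, 216 and 221 CPM in culture, again without overlap (log2 fold change 4.84 ± 0.38 SE, edgeR adjusted p = 1.72e-10). Of the other Eph receptors Epha7 (1.93 on the log2 scale), Ephb4 (1.03), Epha1 and Epha3 rose, and Epha8, Epha10, Ephb1 (-2.22) and Ephb3 (-1.03) fell. The calls of Epha1 (log2 fold change 0.76, edgeR adjusted p = 0.0485) and Epha3 (0.52, 0.0211) were lost when some single libraries were left out, Epha1 without AdAC CellC replicate 3 or any one AdAC direct library and Epha3 without AdAC direct replicate 1. Epha8, at the floor in AdAC CellC, lost its call without AdAC direct replicate 4.

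Among the ephrins, Efnb2, a ligand of EphB receptors and Epha4, rose from 14.4, 13.9, 11.7 and 13.4 CPM to 125, 121, 116 and 118 CPM, and Efnb1 from a range of 14.3 to 17.4 CPM to one of 65.1 to 81.2 CPM. Both sets of libraries were separate (log2 fold change 3.17 ± 0.28 SE, edgeR adjusted p = 5.08e-10 for Efnb2, log2 fold change 2.19 for Efnb1). Efnb3, an ephrin-B ligand, moved the other way, from 624, 671, 702 and 721 CPM in AdAC direct to 49, 92.2, 113 and 87.1 CPM in AdAC CellC (log2 fold change -2.99 ± 0.16 SE, edgeR adjusted p = 1.3e-14). Efna5, the ephrin-A ligand that led in AdAC CellC, had 29.4, 29.2, 30.4 and 25.7 CPM there against 3.54 to 4.93 CPM in AdAC direct, Efna3 and Efna4 rose too, and Efna1 (15.3 to 17.8 CPM directly and 8.29 to 12.4 CPM in culture) and Efna2 (13.6 to 17.2 CPM directly and 4.05 to 5.43 CPM in culture) fell.

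Sema3a, a secreted repellent that binds Nrp1, had 0.426, 0.0927, 0.238 and 0.367 CPM in AdAC direct, at most 13 counts in a library, and 15.1, 15.8, 13.6 and 14.3 CPM in AdAC CellC. The libraries were far apart (log2 fold change 5.70 ± 0.27 SE, edgeR adjusted p = 7.03e-16). Sema3f (4.14), Sema3c (3.84), Sema3e (2.39) and Sema3b (0.73) also rose, Sema3g fell (-1.14) and Sema3d had 3.44 to 7.62 CPM in culture and 5 to 9.28 CPM directly (edgeR adjusted p = 0.397). The receptors of this class moved upward as well: Nrp1 from 23.9, 27, 24.2 and 23.4 to 106, 100.5, 102 and 110.4 CPM (log2 fold change 2.09 ± 0.12 SE, edgeR adjusted p = 1.69e-14), Nrp2 from a range of 25.9 to 29.1 CPM to 166, 185, 163 and 162 CPM, and Plxna1, Plxna2 and Plxnd1 by 2.77, 2.03 and 2.48 on the log2 scale. Plxna3 and Plxna4 fell by 0.40 and 1.24 on the log2 scale.

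Sema4a, a membrane semaphorin known from immune cells and retina, fell from 177, 216, 199 and 164 CPM to 1.63, 2.01, 3 and 1.89 CPM, and this was the largest decrease of the 59 genes (log2 fold change -6.46 ± 0.18 SE, edgeR adjusted p = 5.95e-20). Sema4b, Sema4d and Sema4g of the same class fell, Sema4f rose from a range of 1.06 to 2.02 CPM to one of 4.94 to 7.25 CPM, and Sema4c had 30.2 to 46.2 CPM against 33 to 40.1 CPM (edgeR adjusted p = 0.509). The class 6 semaphorins Sema6a, Sema6b, Sema6c and Sema6d fell by 1.09, 0.83, 1.55 and 1.95 on the log2 scale. Sema6d had 412, 434, 434 and 439 CPM directly and 82.2, 116, 131 and 117 CPM in culture. Plxnb3, a receptor of Sema5a, fell from 475, 536, 495 and 455 CPM to 47, 84.1, 104 and 74.9 CPM (log2 fold change -2.66 ± 0.23 SE, edgeR adjusted p = 2.39e-10), Plxnb1 fell (-2.13) and Plxnb2 rose (1.33).

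Of the Slits, which have Robo receptors on axons and migrating cells, Slit2 rose from 43.2, 36.6, 35.3 and 46.3 CPM to 241, 269, 245 and 259 CPM (log2 fold change 2.65 ± 0.14 SE, edgeR adjusted p = 1.09e-14). Slit3 rose from 0.603, 0.34, 0.238 and 0.339 CPM to 9.21, 7.4, 6.83 and 8.28 CPM (log2 fold change 4.39 ± 0.37 SE, edgeR adjusted p = 6.48e-11). Slit1 was low in both groups, 1.35 to 1.73 and 1.75 to 2.77 CPM, and its call (log2 fold change 0.46) was lost without AdAC CellC replicate 2, AdAC direct replicate 1 or AdAC direct replicate 4. Of the Robos Robo3 rose (0.621 to 0.923 CPM directly and 1.87 to 3.15 CPM), whereas Robo1, Robo2 and Robo4 were not called and lay at log2 fold changes of -0.29, -0.18 and 0.07.

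**Figure D2:**
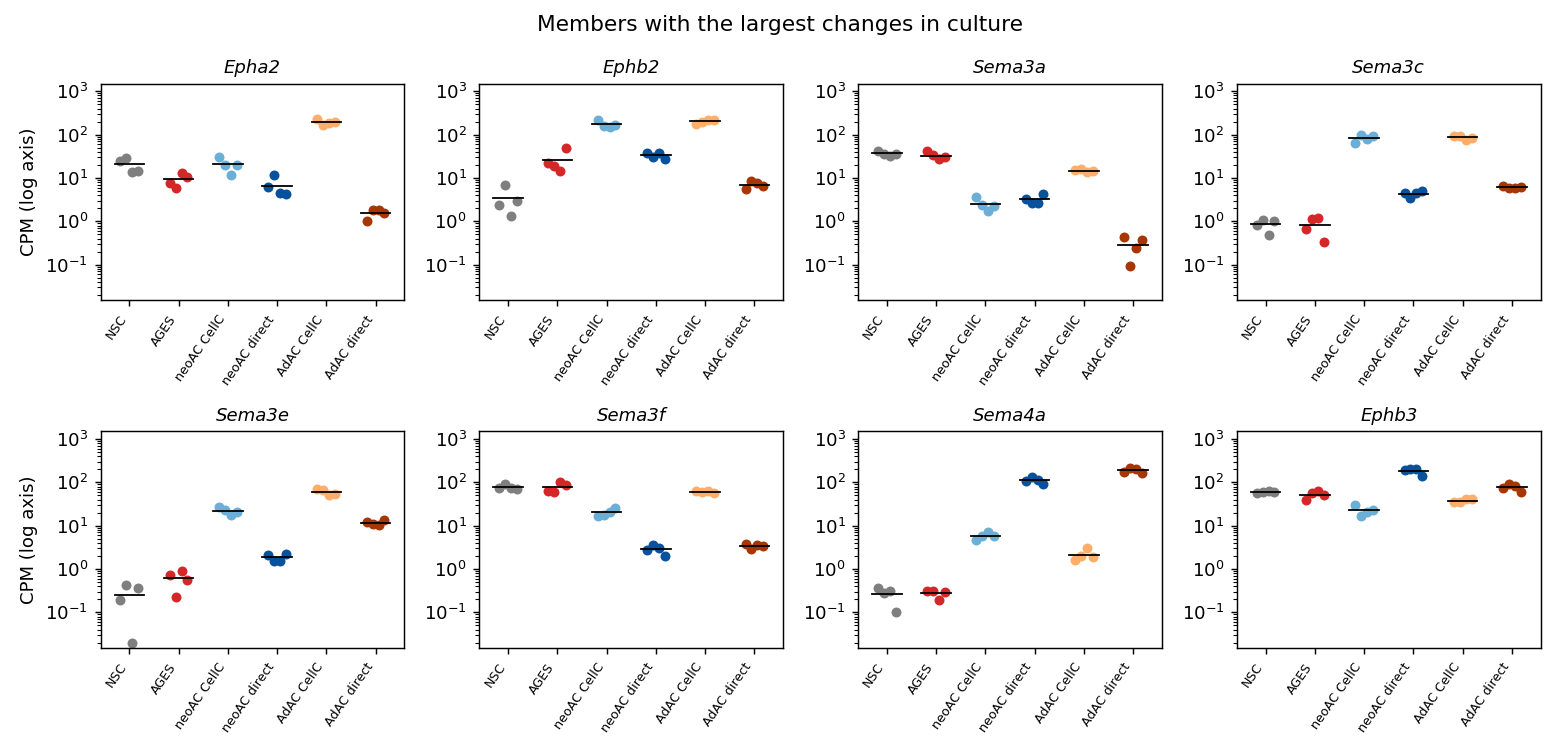
CPM on a log axis of 8 genes in the 4 libraries (points) and the mean (line) of each group; a library with no count is drawn at the lower edge. Epha2, Ephb2, Sema3a, Sema3c, Sema3e and Sema3f lie higher in AdAC CellC than in AdAC direct, Sema4a lies lower in both cultures than in the matching direct cells, and Ephb3 is highest in neoAC direct (140 to 207 CPM).

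The starts of 2 of the genes that rose in adult culture are shown as examples of the sequence in front of them, one for the EphA receptor with the largest rise and the other for the ephrin-B ligand with the largest rise. They are the 250 bases before the start given by RefSeq on GRCm38.p6, chr4:141300971-141301220 on the plus strand for Epha2 and chr8:8661243-8661492 on the minus strand for Efnb2, and capitals mark GGAATG, the core motif of TEAD factors, on either strand.
Epha2: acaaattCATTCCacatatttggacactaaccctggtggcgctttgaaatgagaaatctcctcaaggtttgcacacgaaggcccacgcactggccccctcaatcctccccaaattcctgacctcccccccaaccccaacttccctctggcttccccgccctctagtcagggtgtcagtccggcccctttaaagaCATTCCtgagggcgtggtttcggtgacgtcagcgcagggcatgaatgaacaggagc
Efnb2: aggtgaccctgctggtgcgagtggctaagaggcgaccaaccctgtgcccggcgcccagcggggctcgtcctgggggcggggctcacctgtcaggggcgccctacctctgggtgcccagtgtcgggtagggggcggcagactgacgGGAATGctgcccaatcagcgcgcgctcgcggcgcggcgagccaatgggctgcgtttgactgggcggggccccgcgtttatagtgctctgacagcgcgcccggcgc
Epha2 held 2 matches and Efnb2 held 1. Such windows were found for 53 of the 60 genes, and 7 of them (13.2%) held GGAATG on either strand. Of all 27025 genes with such a window, whether or not they were expressed here, 3880 held it (14.4%). The 7 were Efnb2, Epha1, Epha2, Epha3, Plxnb1, Plxnd1 and Sema4a, of which 5 were called higher and 2 lower in AdAC CellC, where 24 and 18 of the 53 were. TGANTCA, the motif of AP-1 factors, stood in 3 of the 53 windows (5.66%, Sema4c, Sema4d and Sema6b) and in 7.82% of all. A match says only that these letters stand in the window.

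In neonatal astrocytes more of the genes fell than rose in culture. In neoAC CellC compared with neoAC direct, 12 genes rose and 33 fell, 45 of 59, where 65.7% of all genes were called (34.4% higher and 31.3% lower). The median log2 fold change was -0.75 over the 59 genes and 0.04 over all genes. With scaling by library size only, 19 rose and 31 fell, and the median of all genes moved by 0.23, to 0.27. The median over the 59 genes was then -0.52. The share of all genes called under this scaling is not given here. Of the 59 genes 33 were called with more than 1 on the log2 scale (32.6% of all genes), and 44 had no overlap between the libraries (58% of all genes). Of the roles, 3 of 4 A plexins, both C and D plexins, 5 of 6 class 4 semaphorins, 3 of 4 class 6 semaphorins and 3 of 4 Robos fell, and 4 of 7 class 3 semaphorins rose. Summed ependymal markers went from 136 to 210 CPM in neoAC direct up to 1518 to 1941 CPM in neoAC CellC, opposite to their change in adult culture, and those of fibroblasts and meninges from 188 to 310 CPM up to 382 to 640 CPM. Summed astrocyte markers went from 20180 to 22790 CPM in neoAC direct down to 4894 to 5698 CPM in neoAC CellC. The part of these shifts in the changes, or in the difference between the ages, was not tested.

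Sema3c had 4.52, 3.43, 4.42 and 5.12 CPM in neoAC direct and 63.5, 99.4, 79.6 and 91 CPM in neoAC CellC (log2 fold change 4.26 ± 0.19 SE, edgeR adjusted p = 1.58e-15). Sema3e, the ligand of Plxnd1, went from 2.11, 1.55, 1.56 and 2.26 to 27.4, 22.9, 18.1 and 20.3 CPM (log2 fold change 3.57 ± 0.25 SE, edgeR adjusted p = 5.4e-12). Sema3f went from 2.7, 3.63, 3.02 and 1.96 to 17.2, 18, 20.5 and 25.5 CPM (log2 fold change 2.83 ± 0.18 SE, edgeR adjusted p = 5.6e-13). In none of these did libraries of the groups overlap. The same semaphorins were 74.7 to 93.6, 51.5 to 70.5 and 56.3 to 64.2 CPM in AdAC CellC and 5.72 to 6.39, 10.1 to 13.3 and 2.9 to 3.83 CPM in AdAC direct. Ephb2 rose from a range of 27 to 38.6 CPM to 219.8, 157, 147 and 171 CPM, Epha2 from a range of 4.26 to 11.5 CPM to one of 12 to 30.2 CPM, and Nrp2, Efna5, Sema3d, Sema5a, Plxnb2, Robo3 and Slit2 by log2 fold changes between 0.39 (Slit2) and 1.70 (Robo3). The call of Slit2 was lost without neoAC CellC replicate 4 or neoAC direct replicates 2 or 3, and that of Sema5a without neoAC CellC replicate 4 or neoAC direct replicates 1 or 3.

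Sema4a fell from 110.1, 134, 116 and 93.6 to 4.71, 5.84, 7.23 and 5.9 CPM (log2 fold change -4.26 ± 0.16 SE, edgeR adjusted p = 2.87e-17), as it did in adult cells. Ephb3, an EphB receptor of progenitor niches, fell from 193, 203, 207 and 139.6 to 30.2, 17.2, 20.5 and 23.1 CPM (log2 fold change -3.03 ± 0.17 SE, edgeR adjusted p = 1.02e-13). Efnb3 fell from 70.4, 70.2, 68.5 and 59.3 to 8.8, 6.79, 10.1 and 8.81 CPM (log2 fold change -2.96 ± 0.17 SE, edgeR adjusted p = 8.93e-14). Direct and cultured libraries were apart for each of them. Robo1 and Robo2, the Slit receptors of the nervous system, fell by 2.33 and 1.99 on the log2 scale, Robo1 from 167, 177, 176 and 151 CPM to a range of 30.3 to 35.1 CPM, and the ligand Slit1 fell by 2.04. Ephb1 fell from a range of 91.3 to 106 CPM to one of 18.7 to 23.2 CPM, Sema6a from 333 to 485 CPM to one of 56.1 to 69.2 CPM and Plxnb1 from 983 to 1288 CPM to one of 416 to 480.3 CPM.

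Robo4, the Robo of endothelial cells, had 6.05, 17.2, 4.25 and 4.92 CPM in neoAC direct and 0.811, 0.655, 1.11 and 1.5 CPM in neoAC CellC (log2 fold change -2.99 ± 0.37 SE, edgeR adjusted p = 1.08e-07), and Sema3g, a semaphorin of vessels, had 4.26, 7.34, 3.63 and 4.22 and 0.218, 0.183, 0.444 and 0.194 CPM (log2 fold change -4.21 ± 0.33 SE, edgeR adjusted p = 3.55e-11). The summed level of 6 endothelial markers was 65.9 to 267 CPM in neoAC direct and 4.02 to 6.76 CPM in neoAC CellC, where Cldn5 had a mean of 0.0688 CPM, and that of 4 mural markers was 231 to 504 CPM and 43.2 to 56.4 CPM. Replicate 2 of neoAC direct held the highest Robo4, Sema3g, endothelial (267 CPM), mural (504 CPM) and microglial (54.9 CPM) levels of its group. Without it the log2 fold changes were -2.31 for Robo4 and -3.94 for Sema3g. The part of these cells in the change was not tested.

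Side by side, 11 genes rose in culture at both ages (Plxnb2, Epha2, Ephb2, Robo3, Slit2, Sema3c, Sema3e, Sema3f, Sema5a, Efna5 and Nrp2) and 18 fell at both ages, where 17.5% of all 19691 genes rose and 17.1% fell at both ages. The 11 genes were 18.6% of the 59 and the 18 were 30.5%. A further 7 genes rose in adult and fell in neonatal culture, namely Plxna1, Plxnd1, Epha3, Slit1, Efna4, Efnb1 and Nrp1, and 0 did the reverse, against 7.54% and 11.1% of all genes. The neonatal calls of Nrp1 (-0.27) and Plxna1 (-0.32) were lost with scaling by library size only (-0.04 and -0.08). They were also lost without neoAC CellC replicates 2 or 3, that of Nrp1 in addition without neoAC direct replicates 1 or 2 and that of Plxna1 without neoAC direct replicate 3.

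The difference between the changes was tested itself, as an interaction of culture and age in the same fit. It was called for 44 of 59 genes, 35 with a more positive and 9 with a more negative change in adult cells, where 68.6% of all genes were called (35.4% and 33.2%). A difference of more than 1 was called for 39 (45.1% of all genes). The median of the difference was 1.11 on the log2 scale against 0.05 over all genes. The largest was that of Sema3a, which rose in adult culture while its neonatal levels were 3.28, 2.58, 2.68 and 4.29 CPM directly and 3.59, 2.44, 1.69 and 2.27 CPM in culture and overlapped (difference 6.07 ± 0.35 SE on the log2 scale, edgeR adjusted p = 8.16e-14). Epha2 followed (5.32 ± 0.50, edgeR adjusted p = 3.87e-09), with 6.34, 11.5, 4.38 and 4.26 CPM in neoAC direct and 30.2, 20.4, 12 and 19.7 CPM in neoAC CellC. Slit3 had 2.5, 2.46, 2.17 and 1.3 CPM in neoAC direct and 3.21, 2.96, 2.19 and 4.18 CPM in neoAC CellC (difference 3.83 ± 0.48, edgeR adjusted p = 1.48e-07). Efnb1, an ephrin-B ligand, fell from 83, 76, 96.1 and 59.9 to 37, 26.3, 27.7 and 31.8 CPM in neonatal cells and rose from 15.4, 17.4, 17.3 and 14.3 to 65.1, 67.4, 79.7 and 81.2 CPM in adult cells (difference 3.55 ± 0.19, edgeR adjusted p = 3.01e-14). For Efnb3, Sema3c, Ephb1 and Efna2, which moved far in culture, the difference between ages was -0.03 ± 0.22, -0.41 ± 0.25, 0.02 ± 0.29 and 0.06 ± 0.21 (SE) and was not called.

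**Figure D3:**
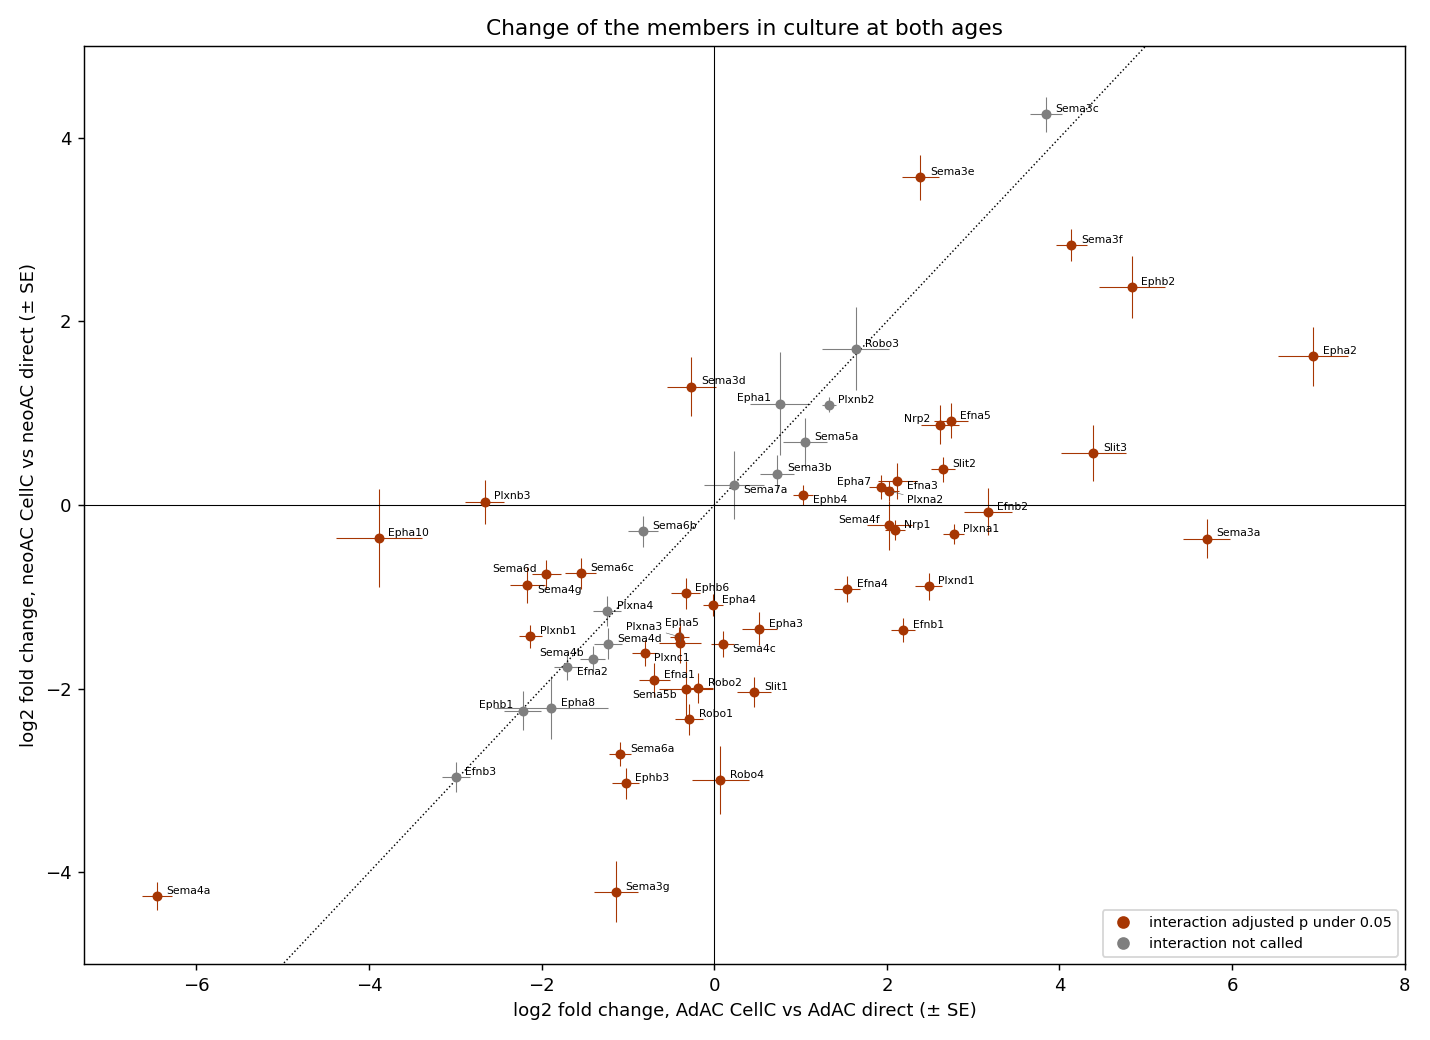
Log2 fold change in culture (± SE) of the 59 genes in adult cells (x axis) and neonatal cells (y axis), with the line of equal change dotted and genes with a called interaction in dark orange. Sema3c and Efnb3 lie close to the line, while Sema3a (5.70 and -0.36) and Epha2 (6.94 and 1.62) lie far to its right.

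Age was compared first in the cells without culture. In neoAC direct compared with AdAC direct, 34 genes were higher and 13 lower, 47 of 59, where 71.4% of all genes were called, 35% as higher and 36.4% as lower. The median log2 fold change was 0.68 against 0.00 over all genes, 34 genes were called with more than 1 on the log2 scale (39.1% of all genes), and 47 had no overlap (64.9% of all genes). All 4 A plexins, both C and D plexins, both neuropilins, all 4 class 6 semaphorins and 4 of 5 EphB receptors were higher in neonatal cells, and the class 7 semaphorin was lower. The 3 of 7 class 3 and 2 of 6 class 4 semaphorins that were lower were near the share of all genes. Summed neural stem cell markers were 6218 to 7985 CPM in neoAC direct (Fabp7 mean 5899 CPM) and 543 to 631 CPM in AdAC direct. Those of ependymal cells were 136 to 210 CPM in neoAC direct and 1073 to 1226 CPM in AdAC direct. Those of oligodendrocyte precursors were 53.4 to 102 CPM and 373 to 495 CPM. The part of such cells in the differences between the ages was not tested.

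Slit1, a Slit of the nervous system, had 39.4, 44.4, 39.8 and 29.4 CPM in neoAC direct and 1.35, 1.73, 1.69 and 1.61 CPM in AdAC direct (log2 fold change 4.58 ± 0.19 SE, edgeR adjusted p = 1.34e-16). Epha5, an EphA receptor of developing projections, had 102, 97, 107 and 116 and 7.91, 8.74, 9.06 and 8.63 CPM (log2 fold change 3.62 ± 0.24 SE, edgeR adjusted p = 6.79e-12). Sema5b, a class 5 semaphorin that repels axons, had 255, 259, 283 and 195 and 18.7, 21.9, 22.5 and 21.1 CPM (log2 fold change 3.56 ± 0.33 SE, edgeR adjusted p = 3.2e-09). For each of them all neonatal libraries were above all adult ones. Robo1 (1.86) and Robo2 (3.32) were higher together with their ligands Slit1 and Slit3 (2.49), and Slit2 had 39 to 53.7 CPM in neonatal and 35.3 to 46.3 CPM in adult cells (edgeR adjusted p = 0.233). Robo4 was called higher (1.05), but without neoAC direct replicate 2, the library rich in endothelial markers, its log2 fold change was 0.37 and the call was lost. Sema3c (without neoAC direct replicates 2 or 3 or AdAC direct replicates 1 or 4), Efna1 (without neoAC direct replicates 3 or 4 or any one AdAC direct library), Nrp2 (without neoAC direct replicate 4) and Sema6d (without AdAC direct replicate 1) also lost their calls when single libraries were left out.

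The genes with the largest excess in adult cells were Plxnb3, Efnb3 and Sema7a, of those with at least 5 CPM. Plxnb3 had 8.35, 8.81, 8.29 and 7.38 CPM in neoAC direct against 475, 536, 495 and 455 CPM in AdAC direct (log2 fold change -5.90 ± 0.27 SE, edgeR adjusted p = 5.19e-15). Efnb3 had 70.4, 70.2, 68.5 and 59.3 against 624, 671, 702 and 721 CPM (log2 fold change -3.34 ± 0.16 SE, edgeR adjusted p = 3.45e-15). Sema7a, the lipid-anchored semaphorin that binds Plxnc1 and integrins, had 9.78, 21.7, 7.71 and 7.08 against 82.5, 97.3, 88.9 and 87.3 CPM (log2 fold change -2.93 ± 0.38 SE, edgeR adjusted p = 5.83e-07). None of their libraries overlapped between ages. Sema4d, the ligand of Plxnb1, had 41.2, 49.5, 42.3 and 39.1 against 176, 193, 205 and 193 CPM (-2.16 on the log2 scale).

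Markers of mature oligodendrocytes were also far higher in the adult than in the neonatal groups. The summed level of Mbp, Mog, Mag, Mobp and Cldn11 was 9799 to 10520 CPM in AdAC direct, 2769 to 7158 CPM in AdAC CellC, 21.4 to 91.4 CPM in neoAC CellC and 16.1 to 20.7 CPM in neoAC direct. Within AdAC CellC, replicate 1 had the lowest marker sum (2769 CPM) and the lowest Efnb3 (49 CPM), Plxnb3 (47), Sema4d (51.8) and Sema7a (78.7), and replicate 3 had the highest of each. Without replicate 1 the log2 fold change from AdAC direct to AdAC CellC was -2.79 for Efnb3, -2.47 for Plxnb3 and -1.05 for Sema4d. In neoAC direct Efnb3 was above 59 CPM while the marker sum was at most 20.7 CPM, of which Mog had a mean of 0.357 CPM. Not every change ran the same way as the markers. Sema7a had its highest group mean in AdAC CellC, where the marker sum was below that of AdAC direct, and was not called in adult culture (0.23 on the log2 scale). In neonatal culture Efnb3 and Sema4d fell by 2.96 and 1.51 on the log2 scale, while the marker sum was higher in every cultured library than in any direct one. The part of oligodendrocytes in the adult levels was not tested.

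**Figure D4:**
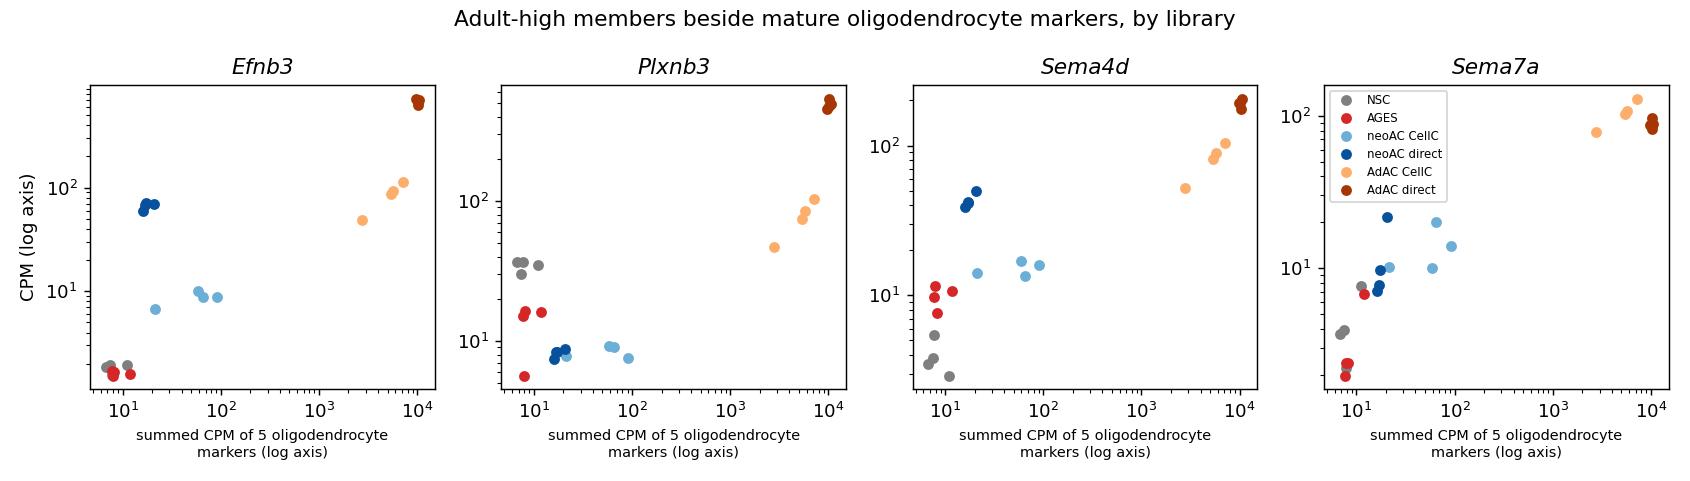
CPM of Efnb3, Plxnb3, Sema4d and Sema7a (y axis, log) against the summed CPM of 5 mature oligodendrocyte markers (x axis, log) in the 24 libraries, coloured by group. The AdAC direct libraries lie at marker sums of 9799 to 10520 CPM with the highest Efnb3, Plxnb3 and Sema4d, and Efnb3 lies at 59.3 to 70.4 CPM in neoAC direct at marker sums of 16.1 to 20.7 CPM.

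Age was then compared in the cultured cells. In neoAC CellC compared with AdAC CellC, 15 genes were higher and 30 lower, 45 of 59, where 63.8% of all genes were called (28.5% higher and 35.2% lower). The median log2 fold change was -0.65 against -0.08 over all genes, with 37 genes called at more than 1 on the log2 scale (29.8% of all genes) and 45 without overlap (62.2% of all genes). Of the roles, 6 of 7 class 3 semaphorins, both neuropilins and all 3 ephrin-B ligands were lower in neonatal culture, and 3 of 4 class 6 semaphorins were higher. Side by side with the direct cells, 13 genes were higher in neonatal cells in both comparisons, 10 were lower in both, 12 were higher directly but lower in culture (Plxna1, Plxnd1, Epha2, Ephb3, Robo4, Slit3, Sema3a, Efna4, Efnb1, Efnb2, Nrp1 and Nrp2) and Sema4a alone was lower directly and higher in culture. Of all genes 10.5% were higher in both, 13% lower in both, 12.6% higher directly but lower in culture and 11.6% the reverse.

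Epha5 had 32.5, 40.8, 34.4 and 41.1 CPM in neoAC CellC and 5.34, 7.84, 5.98 and 7.01 CPM in AdAC CellC (log2 fold change 2.51 ± 0.24 SE, edgeR adjusted p = 4.71e-09), Slit1 had 7.86, 9.33, 10.8 and 9.31 and 1.75, 2.77, 2.07 and 2.23 CPM (log2 fold change 2.08 ± 0.18 SE, edgeR adjusted p = 2.48e-10), and Sema5b had 69.9, 46.8, 66.6 and 64.1 and 13.6, 14.9, 16.8 and 21.8 CPM (log2 fold change 1.88 ± 0.31 SE, edgeR adjusted p = 2.12e-05). These 3 were also the first 3 in the direct cells. The log2 fold changes of Epha2, Efnb3 and Plxnb3, the first genes lower in neonatal culture, were -3.24, -3.31 and -3.20. Plxnb3 had 9.11, 7.76, 9.26 and 7.62 CPM in neoAC CellC, and all 3 were below AdAC CellC in every library. The sum of oligodendrocyte markers was lower in neoAC CellC than in AdAC CellC as well. Summed astrocyte markers were 4894 to 5698 CPM in neoAC CellC and 827 to 1201 CPM in AdAC CellC. Those of ependymal cells were 1518 to 1941 CPM and 228 to 329 CPM, in the same order. The part of these shifts in the differences of the genes was not tested. Slit2 was 54.7 to 75.8 CPM in neoAC CellC against 241 to 269 CPM (-2.08), and Ephb2, Sema3c and Plxnb2, which rose in both cultures, differed by -0.22, -0.05 and 0.03 on the log2 scale between the cultures and were not called. Summed markers of fibroblasts and meninges were 1065 to 1547 CPM in AdAC CellC, 382 to 640 CPM in neoAC CellC, 188 to 310 CPM in neoAC direct and 78.8 to 95.5 CPM in AdAC direct. For 8 of the 59 genes the highest group mean was in AdAC CellC and the next in neoAC CellC (4.59% of all genes). They were Ephb2, Epha7, Sema3c, Sema3e, Slit2, Slit3, Robo3 and Efna5. Only these 2 ranks were matched, and the order of the other groups varied. Slit3 and Ephb2 were called higher in neoAC direct than in AdAC direct, and Sema3c, Sema3e and Robo3 were called lower. The part of fibroblasts and meningeal cells in these levels was not tested.

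The next comparison followed NSCs to AGES. In AGES compared with NSCs, 26 genes rose and 15 fell, 41 of 59, where 65.7% of all genes were called, 31.7% as higher and 34% as lower. The median log2 fold change was 0.10 against 0.00 over all genes, and the median size was 1.29 against 0.86. Called changes of more than 1 numbered 33 (38% of all genes), and 31 genes had no overlap (58.3% of all genes). Summed astrocyte markers were 1950 to 2484 CPM in NSCs and 6262 to 6955 CPM in AGES. Those of neural stem cells were 2898 to 3687 CPM in NSCs and 1240 to 1658 CPM in AGES. Those of ependymal cells were 15.42 to 24.45 CPM and 54.44 to 79.32 CPM. These sums were mostly Foxj1, with means of 18.4 CPM in NSCs and 62.9 CPM in AGES. Of the 5 ependymal markers, 1 in NSCs and 2 in AGES had at least 1 CPM in every library. The part of such shifts in the changes of the genes was not tested. Of the roles, 3 of 5 EphB receptors, 3 of 4 Robos, both neuropilins and 3 of 4 class 6 semaphorins rose, and 2 of 3 Slits fell. The 3 of 8 EphA receptors that rose and the 2 of 6 class 4 semaphorins that fell were near the shares of all genes. The call of Robo1 was lost with scaling by library size only and without NSC replicates 2 or 3 or AGES replicates 2 or 3. Robo4 was at the floor in NSCs and lost its call without NSC replicate 2. Of the Slits, Slit1 was low in NSCs and at the floor in AGES. Slit2 was below 1 CPM in both groups, and its call (log2 fold change -1.10) was lost with the size factors of DESeq2, without the filter on low counts, and without NSC replicates 3 or 4 (-0.58 without the latter) or AGES replicates 1, 2 or 4.

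Plxna4, an A plexin of axon targeting, had 1.5, 1.37, 1.11 and 1.84 CPM in NSCs and 43.9, 59.6, 86.7 and 41.1 CPM in AGES (log2 fold change 5.31 ± 0.21 SE, edgeR adjusted p = 2.99e-17). It overlaps Plxna4os3 on the opposite strand by 110 bases. Sema3b, a class 3 semaphorin, had 2.22, 1.73, 1.5 and 2.67 and 33.4, 22.9, 47.8 and 50.5 CPM (log2 fold change 4.25 ± 0.23 SE, edgeR adjusted p = 2.39e-14). Epha5 had 12.3, 4.86, 14.7 and 16.2 and 107, 145, 78.4 and 121 CPM (log2 fold change 3.24 ± 0.24 SE, edgeR adjusted p = 2.8e-11), and Epha4, an EphA receptor that binds ephrins of both classes, had 13.5, 9.02, 14.6 and 15.2 and 118, 126, 101 and 98.2 CPM (log2 fold change 3.09 ± 0.13 SE, edgeR adjusted p = 4.82e-17). In each case every AGES library was above every NSC library. Nrp2 rose by 2.39, Ephb2 by 2.93, Plxnb1 by 1.88, Plxnc1 by 1.81, Robo2 by 1.47 and Sema6d by 1.00 on the log2 scale. Slit3, at the floor in NSCs, was at least 6.45-fold higher in AGES, with 0.234, 0.232, 1.02 and 0.987 CPM.

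Sema5a, a class 5 semaphorin that binds Plxnb3, had 36.8, 23.6, 14.6 and 34.5 CPM in NSCs and 1.29, 0.696, 2.4 and 1.12 CPM in AGES (log2 fold change -4.32 ± 0.32 SE, edgeR adjusted p = 1.84e-11). Sema4b had 125, 158, 114 and 113 and 22, 24.9, 30.6 and 27.9 CPM (log2 fold change -2.27 ± 0.15 SE, edgeR adjusted p = 7.38e-13), and Sema4c, a ligand of Plxnb2, had 73.5, 79, 70 and 69 and 14.7, 14.1, 15.7 and 16.4 CPM (log2 fold change -2.26 ± 0.14 SE, edgeR adjusted p = 2.41e-13). The libraries were apart in all of them. Plxna2 fell by 1.90, Efna2 by 1.94, Plxnb3 by 1.38, Sema6a by 1.17 and Epha2 by 1.16 on the log2 scale. Slit1 and Sema3d were at the floor in AGES and at least 6.39-fold and 4.01-fold lower than in NSCs. Sema3a had 43, 36.3, 32.6 and 36.2 CPM in NSCs and 40.9, 33.4, 27.2 and 30.3 CPM in AGES, and Sema3f 75.3, 91.2, 72.9 and 69.9 and 62.6, 61.1, 101 and 87.6 CPM, and neither was called, with log2 fold changes of -0.17 ± 0.17 and 0.01 ± 0.15 (SE).

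**Figure D5:**
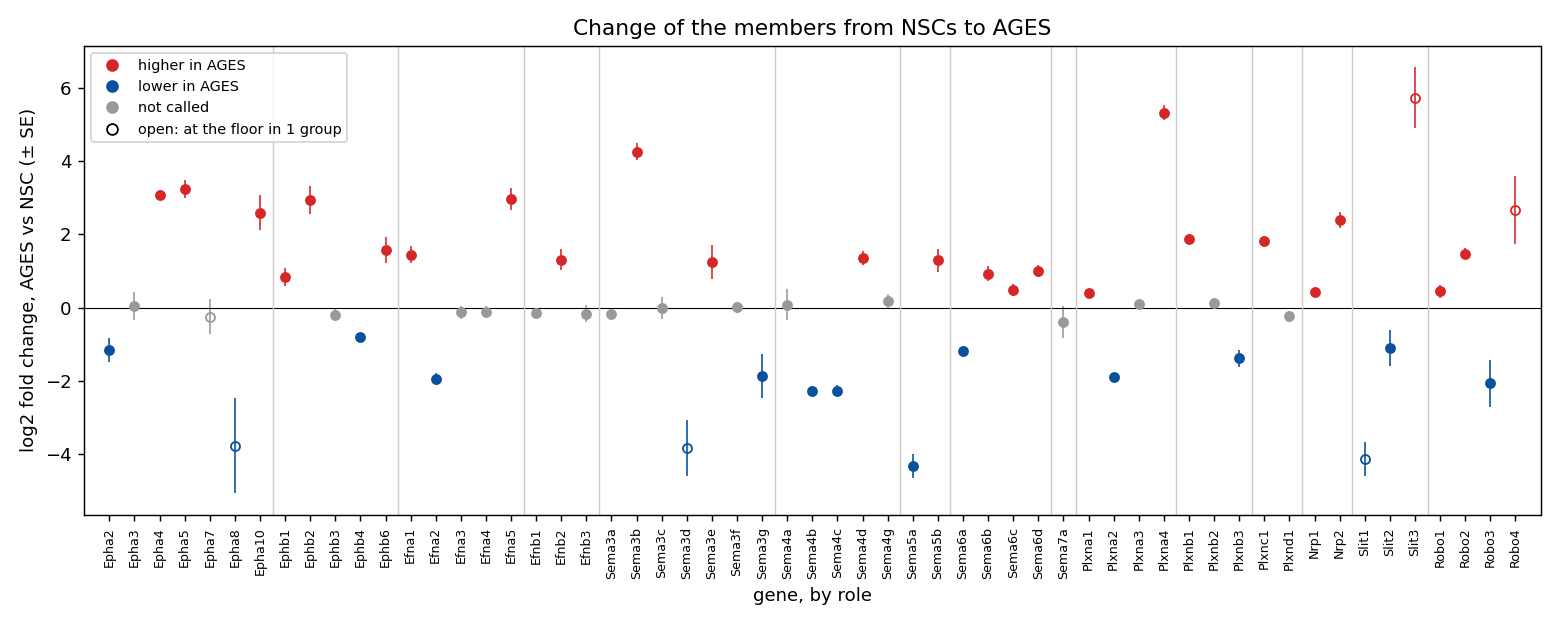
Log2 fold change of AGES over NSC (± SE) for the genes above the floor in at least 1 of the groups, in order of role, with genes higher in AGES in red, lower in blue and not called in grey. Plxna4 (5.31) and Sema3b (4.25) are the highest and Sema5a (-4.32) the lowest of the genes above the floor in both groups; open points are genes at the floor in 1 group, whose fitted values are no bound.

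AGES were last set against the cultured primary astrocytes. Compared with AdAC CellC, 18 genes were higher and 38 lower in AGES, 56 of 59, where 76.2% of all genes were called, 31% as higher and 45.2% as lower. The median log2 fold change was -1.22 against -0.23 over all genes, and the median size was 2.54 against 0.95. Compared with neoAC CellC, 19 were higher and 35 lower, 54 of 59, where 74.6% of all genes were called, 34.1% as higher and 40.5% as lower, with medians of -0.76 and -0.07. The groups did not overlap for 52 genes against AdAC CellC (73.1% of all genes) and for 50 against neoAC CellC (69.6% of all genes), and 42 and 41 changed by more than 1 on the log2 scale (46.7% and 43.6% of all genes). The 2 comparisons share the AGES libraries, so their agreement is no separate evidence. Markers of other cells were lower in AGES than in both cultures, with sums of 1.13 to 1.47 CPM for fibroblasts and meninges (Dcn and Lum at the floor), 54.4 to 79.3 CPM for ependymal cells and 7.72 to 11.9 CPM for mature oligodendrocytes, and their part in these differences was not tested.

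The AGES libraries held 0.156, 0.058, 0.192 and 0.165 CPM of Slit2, against 241, 269, 245 and 259 CPM in AdAC CellC and 54.9, 54.7, 55.2 and 75.8 CPM in neoAC CellC, with log2 fold changes of -10.78 ± 0.25 and -8.71 ± 0.25 (SE, edgeR adjusted p = 4.19e-22 and 1.73e-20). Slit2 was also low in NSCs, with 0.228, 0.152, 0.255 and 0.602 CPM. Epha7, an EphA receptor of cortical borders, was at the floor in AGES and had 25.2, 33.6, 31.9 and 24.9 CPM in AdAC CellC and 8.61, 9.07, 10.3 and 11.4 CPM in neoAC CellC, so that it was at least 289.9-fold and 98.6-fold lower in AGES. Sema4f, also at the floor, had 4.94, 5.95, 7.25 and 5.12 CPM in AdAC CellC and was at least 58.3-fold lower, and Slit1, with 7.86, 9.33, 10.8 and 9.31 CPM in neoAC CellC, was at least 93.4-fold lower. Sema3c and Sema3e had 0.329 to 1.19 and 0.232 to 0.897 CPM in AGES, against 63.5 to 99.4 and 18.1 to 27.4 CPM in neoAC CellC. All 3 Slits, 4 of 5 EphB receptors, 5 of 8 EphA receptors, 5 of 6 class 4 semaphorins and 3 of 4 Robos were lower in AGES in either comparison.

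The genes higher in AGES held receptors of Slits and semaphorins. The AGES libraries held 200.1, 197, 147 and 162 CPM of Robo2, against 7.18, 9.71, 9.54 and 13.7 CPM in AdAC CellC and 26.7, 30.7, 27.6 and 29.3 CPM in neoAC CellC (log2 fold change 4.14 ± 0.18 SE, edgeR adjusted p = 1.51e-16 against AdAC CellC and 2.63 against neoAC CellC). Plxnc1, the receptor of Sema7a, had 97.8, 99, 62.5 and 77.1 CPM against 9.36, 10.7, 10.8 and 11.1 CPM in AdAC CellC (log2 fold change 3.00 ± 0.15 SE, edgeR adjusted p = 1.46e-15). Plxnd1, the receptor of Sema3e, had 195, 213, 249.9 and 209.7 CPM against 46.9, 37.2, 31.1 and 38.3 CPM in neoAC CellC (log2 fold change 2.50 ± 0.15 SE, edgeR adjusted p = 1.11e-13). In all of them the libraries were apart. Epha5 (4.11 and 1.60), Epha4 (1.92 and 1.79) and Plxna4 (1.96 and 1.04) were higher than in AdAC CellC and neoAC CellC, in this order. Of the ligands Sema3a was the furthest above neoAC CellC (log2 fold change 3.73 ± 0.20 SE, edgeR adjusted p = 8.62e-15) and was 1.16 above AdAC CellC on the log2 scale. Plxnb2 lay at 901, 833, 883 and 951 CPM in AGES, overlapping neoAC CellC (812 to 941 CPM) and AdAC CellC (822 to 877 CPM). Its log2 fold changes were 0.03 ± 0.08 against neoAC CellC and 0.05 ± 0.08 against AdAC CellC (SE).

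Other genes of the pathway came from lists of 24 netrins, netrin receptors and related guidance molecules, 23 of them in the table, and of 30 intracellular signalling proteins. In adult culture 7 of the 23 rose and 11 fell, and 11 of the 30 rose and 13 fell, where 38.8% of all genes rose and 39.2% fell. Ntn1, the secreted ligand of Dcc and Unc5 receptors, rose from a range of 19.2 to 22.2 CPM in AdAC direct to one of 442 to 511 CPM in AdAC CellC (log2 fold change 4.55 ± 0.19 SE, edgeR adjusted p = 1.31e-16). Dpysl3, of the collapsin response mediator family, rose from a range of 6.98 to 8.41 CPM to one of 299.5 to 333 CPM (log2 fold change 5.35 ± 0.28 SE, edgeR adjusted p = 3.59e-14). Neonatal cultures had 207 to 252 CPM of Dpysl3 against 263 to 295 CPM in neoAC direct and it was not called there (edgeR adjusted p = 0.337). In neonatal culture 5 of the 23 rose and 14 fell (34.4% and 31.3% of all genes), and between neoAC direct and AdAC direct 14 were higher and 6 lower (35% and 36.4% of all genes), with a median log2 fold change of 1.30 against 0.00 over all genes. Between NSCs and AGES 12 of the 23 rose and 9 fell, led by the adhesion molecule L1cam, which had 0.0911 to 0.223 CPM in NSCs and 15.6 to 23.8 CPM in AGES (log2 fold change 6.75 ± 0.33 SE, edgeR adjusted p = 1.36e-15). Of the 30 signalling proteins 12 rose and 12 fell in this step, in which 31.7% of all genes rose and 34% fell. Cntn2, a contactin found in myelinated axons and their glia, had 1248 to 1330 CPM in AdAC direct, 121 to 316 CPM in AdAC CellC and 7.06 to 10.2 CPM in neoAC direct, and the part of oligodendrocytes in these levels was not tested.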

How the data were processed

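RNA-seq counts per gene in 24 libraries were deposited by the authors as raw read counts, made per the labels and the submitters' processing notes with bcl2fastq 2.20, STAR 2.7.3a and featureCounts on mouse build GRCm38. The strand setting of counting is not given in the sources used here. Groups came from the sample labels. The members and lists were chosen with earlier results of these data known. All 49671 genes were annotated with Gencode (99.31% matched), filtered with filterByExpr (19691 left) and fitted over the 6 groups with edgeR 4.0.16 (R 4.3.3, TMM scaling, robust quasi-likelihood test, Benjamini-Hochberg adjustment, threshold 0.05). The code was also run on simulated counts of neoAC CellC and neoAC direct in which few genes changed. Far more genes were called in the data, so that run does not check the scaling or the calls here. Members named with library values were the first 3 higher and lower of each of 7 comparisons (at least 5 CPM, libraries apart), the first 4 of the interaction and, partly as means or ranges, the leader of each role. Values for other members were chosen after they were seen. Depth was 27904126 to 37997368 counts. Alternatives were other scalings and filters, each library left out, fits of the compared groups with and without a replicate block, and DESeq2 1.42.0. Replicates were separate passages or isolations. One oligodendrocyte marker of the list is not reported here and was left out of the marker sums.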

Additional observations from a re-analysis of the deposited data

Results flagged for a closer look

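In 7 of 145 groups of 4 libraries tried, 1 library stood apart from the other 3 by Dixon's ratio of gap to range, and chance gives such a gap in about 1 of 20 groups. Robo4 was 17.22 CPM in replicate 2 of neoAC direct, the library with the highest endothelial markers, against 4.25 to 6.05 CPM in the others. Efnb3 was 59.31 CPM in replicate 4 of neoAC direct against 68.5 to 70.4 CPM, and Sema4b was 99.03 CPM in the same library against 129 to 135 CPM. Plxnb3 was 5.672 CPM in replicate 3 of AGES against 15.0 to 16.4 CPM. Sema7a was 6.747 CPM in replicate 4 of AGES against 1.97 to 2.38 CPM. Sema5b was 3.375 CPM in replicate 3 of NSCs against 11.67 to 12.99 CPM. Slit2 was 75.82 CPM in replicate 4 of neoAC CellC against 54.7 to 55.2 CPM.

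The change in culture differed between the ages by the interaction in edgeR, by 6.07 on the log2 scale for Sema3a, 5.32 for Epha2, 3.83 for Slit3 and 3.55 for Efnb1, each more positive in adult cells.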

How the results depend on the processing

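Each of the 381 calls of a gene in a comparison was recomputed where the alternative kept the gene, and none reversed in direction. Of 5921 values, 110, from 29 calls, lost the call, and the other 5811 were counted as the same. A value that kept its direction but had no adjusted p was counted among these 5811. The stricter filter below gave values for 257 of the 381 calls and the fits of the compared groups for 370. Under a filter of 10 or more counts in all libraries, passed by 40 members, 36 genes were called between AGES and AdAC CellC, 29 between neoAC CellC and AdAC CellC and 29 for the interaction. Leaving out 1 library gave 46 to 50 called genes for adult culture, 43 to 46 for neonatal culture, 36 to 40 for AGES against NSC, 55 to 57 and 53 to 54 for AGES against AdAC CellC and neoAC CellC, 45 to 47 and 44 to 47 for age in cultured and direct cells and 43 to 46 for the interaction. Scaling by library size only moved the median of all genes by -0.22 and -0.30 in AGES against AdAC CellC and neoAC CellC and by -0.15 in the interaction. The shares of all genes called under these alternatives are not given here, so the counts describe the members alone.

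Correlations of same-numbered libraries, as deviations from their group means, ran from -0.167 to 0.438. Replicates 4 of neoAC direct and AdAC direct (0.438) were each other's best match. So were replicates 1 of AGES and NSC (0.073) and replicates 3 of neoAC CellC and AdAC CellC (0.0668). Such correlations cannot tell whether libraries shared an isolation, a passage or a batch. In fits of the compared groups alone, the replicate block gave 53 called genes in place of 52 for adult culture, 45 and 45 for neonatal culture, 31 and 33 for AGES against NSC, 54 and 54 and 50 and 50 for AGES against AdAC CellC and neoAC CellC, 47 and 46 and 51 and 49 for age in cultured and direct cells and 47 and 45 for the interaction. Depth limits genes at the floor of 3 counts.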
